A study of Danio rerio with 24 samples.

Results

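Gene activity in skeletal muscle was compared between trained and untrained wild-type zebrafish (Danio rerio), with 7 sequencing libraries in each group. These 14 libraries are the wild-type ones among the 21 of the count table, chosen by their titles alone. The other 7 came from untrained fish that carry the transgene actc1b:PGC1alpha and overexpress PGC1alpha, a transcriptional coactivator known for driving mitochondrial genes, under a name that begins with the muscle actin gene actc1b. The trained fish were wild type and had undergone chronic exercise, the untrained fish were wild type without it, and the fish of every group were 4 months old per the labels. The labels describe 24 samples, 8 a group, and trained replicate 7, untrained replicate 1 and transgenic replicate 8 were not analysed here. They give no training regimen, no time between the last bout and sampling, no time of day, no sex, and nothing on whether a sample was 1 fish or a pool. The p-values therefore measure the spread between these samples, and lasting differences and those of the last bout cannot be told apart.

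A bout of muscle work raises calcium and cyclic AMP in the fibre, draws down its fuel and pulls on its cytoskeleton. Each of these signals is known to switch on short-lived transcripts, among them immediate early genes and the NR4A nuclear receptors. Over repeated bouts vertebrate muscle is known to gain mitochondria and capillaries, to oxidise more fatty acid, to handle fuel and amino acids differently and sometimes to exchange contractile protein isoforms.

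Each trained library held 72144205 to 78624009 counts over genes and each untrained library 70980459 to 79184764. Levels are given as CPM, the counts of a gene scaled by library sizes that were adjusted by TMM (trimmed mean of M-values). Fast fibre genes summed to between 198627 and 350403 CPM in trained libraries and between 99201 and 381030 CPM in untrained ones. Every library therefore carried the markers of its labelled tissue. Libraries stood apart within the groups: the first principal component of the 14 libraries took 31.9% of the variance and set trained replicates 2 and 3 at -95.1 and -64.6, against 129.8, 103.2 and 61.7 for untrained replicates 7, 3 and 5. Germ-line genes summed to 19.7 to 73.7 CPM in trained libraries, against 352.6 and 208.4 CPM in untrained replicates 3 and 7 and 26.2 to 58.8 CPM in the other untrained ones. Results are therefore given with and without these 2 libraries. In bulk muscle, fewer cells of a type and less RNA per cell cannot be told apart.

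In trained muscle 426 genes were higher and 133 lower than in untrained muscle, of 18947 tested, at a Benjamini-Hochberg adjusted p under 0.05 by the edgeR quasi-likelihood F test, which is what "called" means in all that follows. That is 2.95% of all genes tested, with 2.25% higher and 0.702% lower. Counts of calls in the gene lists below are to be read against these shares. The lists were chosen with earlier results of these data known, and 5 of them after the values were seen. An excess of calls in a list over these shares is therefore described and was not tested. All 7 trained libraries lay above all 7 untrained ones for 188 genes (0.992% of those tested) and below them for 66 (0.348%). Of the called genes, 167 lay wholly above and 35 wholly below. The difference reached a factor of 2, an absolute log2 fold change of at least 1, in 231 of the higher and 62 of the lower genes. The authors' deposited table calls 1262 genes, and it holds all 559 of these with the same direction.

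The counts of calls moved with single libraries. Without untrained replicates 3 and 7 all 559 genes kept their sign, 238 of them were still called, and the median absolute log2 fold change was 0.96 in place of 1.05. That fit called 210 genes higher and 52 lower of 19211 tested. The smaller counts of each gene list without these 2 libraries are to be read against this drop over all genes. Leaving out trained replicate 5 gave 287 calls, 237 higher and 50 lower, and leaving out untrained replicate 3 gave 335, with 271 higher and 64 lower. The count of lower genes also dropped to 70 without trained replicate 1, 88 without replicate 2, 71 without replicate 4 and 77 without replicate 8. Called under every one of 25 alternatives were 123 higher and 18 lower genes. When libraries were scaled by their totals only, 17.8% of calls were higher instead of 76.2%, since this scaling moved the median of all genes by -0.30 on the log2 scale, and values here are relative to the TMM (trimmed mean of M-values) scaling.

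**Figure D1:**
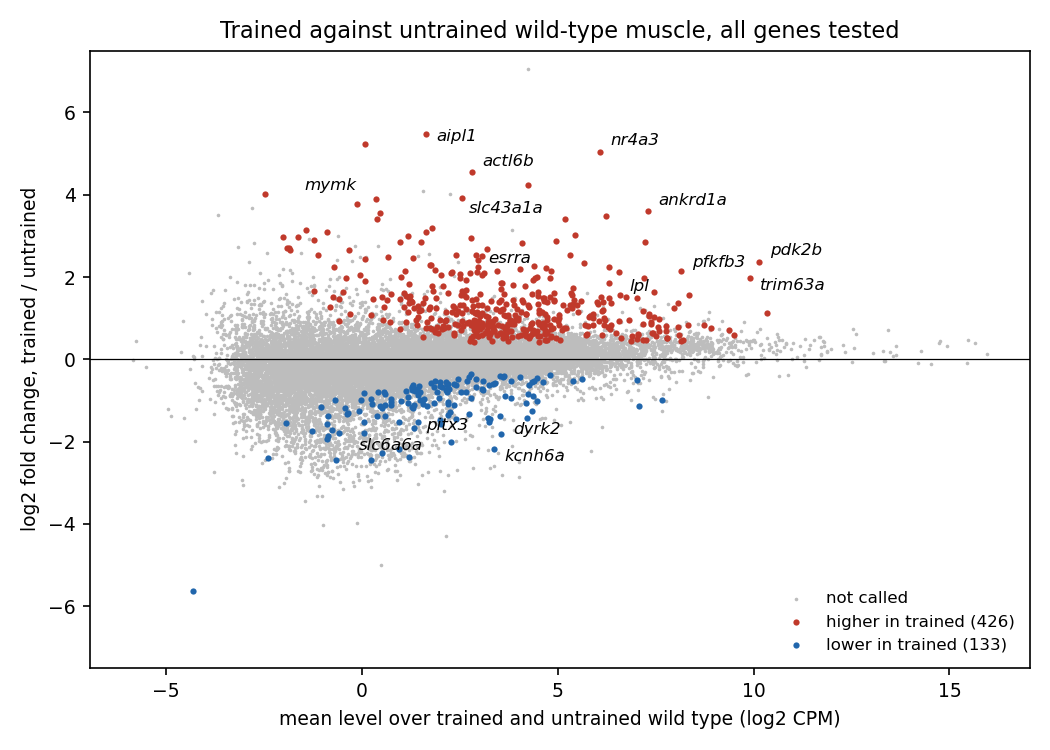
Log2 fold change, trained over untrained (vertical axis), against the mean level in log2 CPM (horizontal axis) for every gene tested, with called genes in red (426 higher) and blue (133 lower). The highest called genes, such as nr4a3 and ankrd1a, lie far above the cloud of genes at their level.

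The orphan nuclear receptor gene nr4a3 stood out among the regulators. NR4A receptors are immediate early transcription factors, and in mammalian muscle they are known to respond to exercise and adrenergic signals. Trained libraries held 57.8 to 183 CPM of nr4a3 (median 136), against 1.38 to 8.5 CPM (median 2.07) in untrained libraries, with no overlap. The log2 fold change was 5.05 ± 0.61 (SE, n = 7 each, edgeR adjusted p = 3.8e-05). Its relatives were not called. The gene nr4a1 ran from 39.7 to 199 CPM (median 129) in trained and from 51.1 to 317 CPM (median 277) in untrained libraries, or -0.91 ± 0.40 log2 units (edgeR adjusted p = 0.213), and nr4a2b was at 0.46 ± 0.26 (adjusted p = 0.355). Too few counts were left of nr4a2a to test it.

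Of 26 tested genes for PGC1 coactivators, ERR, PPAR and RXR receptors and their partners, 2 were higher in trained muscle and 0 lower, both with all libraries and without untrained replicates 3 and 7. At an unadjusted p under 0.05 there were 2 higher and 4 lower, a limit that 9.34% of all genes passed as higher and 10.3% as lower. The estrogen-related receptor gene esrra, whose product works with PGC1alpha on mitochondrial promoters, was at no less than 26.2 CPM (median 52.8) in trained and at 2.62 to 18.4 CPM (median 9.65) in untrained libraries. The groups did not overlap, and the log2 fold change was 2.14 ± 0.42 (edgeR adjusted p = 0.00568). The fatty acid sensor gene pparaa rose by 1.08 ± 0.25 (adjusted p = 0.0219), with overlapping ranges. The zebrafish gene of PGC1alpha itself, ppargc1a, varied widely in both groups, from 7.18 to 39.2 CPM (median 21.5) in trained and from 6.62 to 44.1 CPM (median 37.9) in untrained libraries, and its log2 fold change was -0.20 ± 0.42 (adjusted p = 0.841), or 0.0777 without trained replicates 2 and 3. The related coactivator gene ppargc1b was at -0.33 ± 0.24 (adjusted p = 0.478).

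Immediate early genes, which turn on within minutes of a stimulus without new protein synthesis, included several called higher. Of 36 tested, 9 were called higher and 0 lower, and at an unadjusted p under 0.05 there were 20 higher and 0 lower. Summed over the list, trained libraries held 1672 to 2448 CPM and untrained ones 692 to 2398 CPM. The groups thus overlapped through untrained replicate 8 at 2398 CPM, with the next untrained library at 1160 CPM. The list median was 0.78 against -0.07 over all genes. Without untrained replicates 3 and 7 there were 4 higher and the median was 0.68. The nuclear factor gene csrnp1a ran from 54.6 to 135 CPM (median 77.7) in trained and from 8.06 to 30.3 CPM (median 16.6) in untrained libraries, a difference of 2.35 ± 0.27 log2 units with no overlap (edgeR adjusted p = 2.63e-05). The AP-1 gene junbb rose by 1.97 ± 0.34 and the small Maf gene maff by 0.90 ± 0.16. The cyclic AMP responsive modulator crema ran from 24.9 to 40.5 CPM (median 36.8) in trained libraries and from 7.34 to 24.2 CPM (median 9.8) in untrained ones, a rise of 1.54 ± 0.25 log2 units (adjusted p = 0.00118). Calls on cebpb, atf3, sik1, dusp1 and dusp2, which encode transcription factors, a kinase and phosphatases that switch off MAP kinases, were lost without untrained replicates 3 and 7. The classical early genes fosab and egr1 were at 0.84 ± 0.53 (adjusted p = 0.402) and -0.02 ± 0.31 (adjusted p = 0.981).

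Several genes grouped here with the cyclic AMP pathway were also higher. Membership of this group does not mean that a product itself binds or responds to cyclic AMP. A list of 48 such genes, composed after the values were seen and so only described, held 9 higher and 0 lower, and 5 higher without untrained replicates 3 and 7. Its median was 0.14, and -0.15 when libraries were scaled by totals only. The phosphodiesterase gene pde7a, whose product degrades cyclic AMP, lay between 84.1 and 161 CPM (median 132) in trained and between 19.4 and 45.6 CPM (median 23.4) in untrained libraries. The difference was 2.25 ± 0.22 log2 units (edgeR adjusted p = 3.55e-06), among the smallest p-values of all genes. The list also held the transcription factor gene creb5a (2.24 ± 0.35), rapgef5b, for an exchange factor of small GTPases (2.12 ± 0.28), and akap12b, for a protein that anchors kinase A (1.86 ± 0.36). All 4 were called under each of the 25 alternatives.

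**Figure D2:**
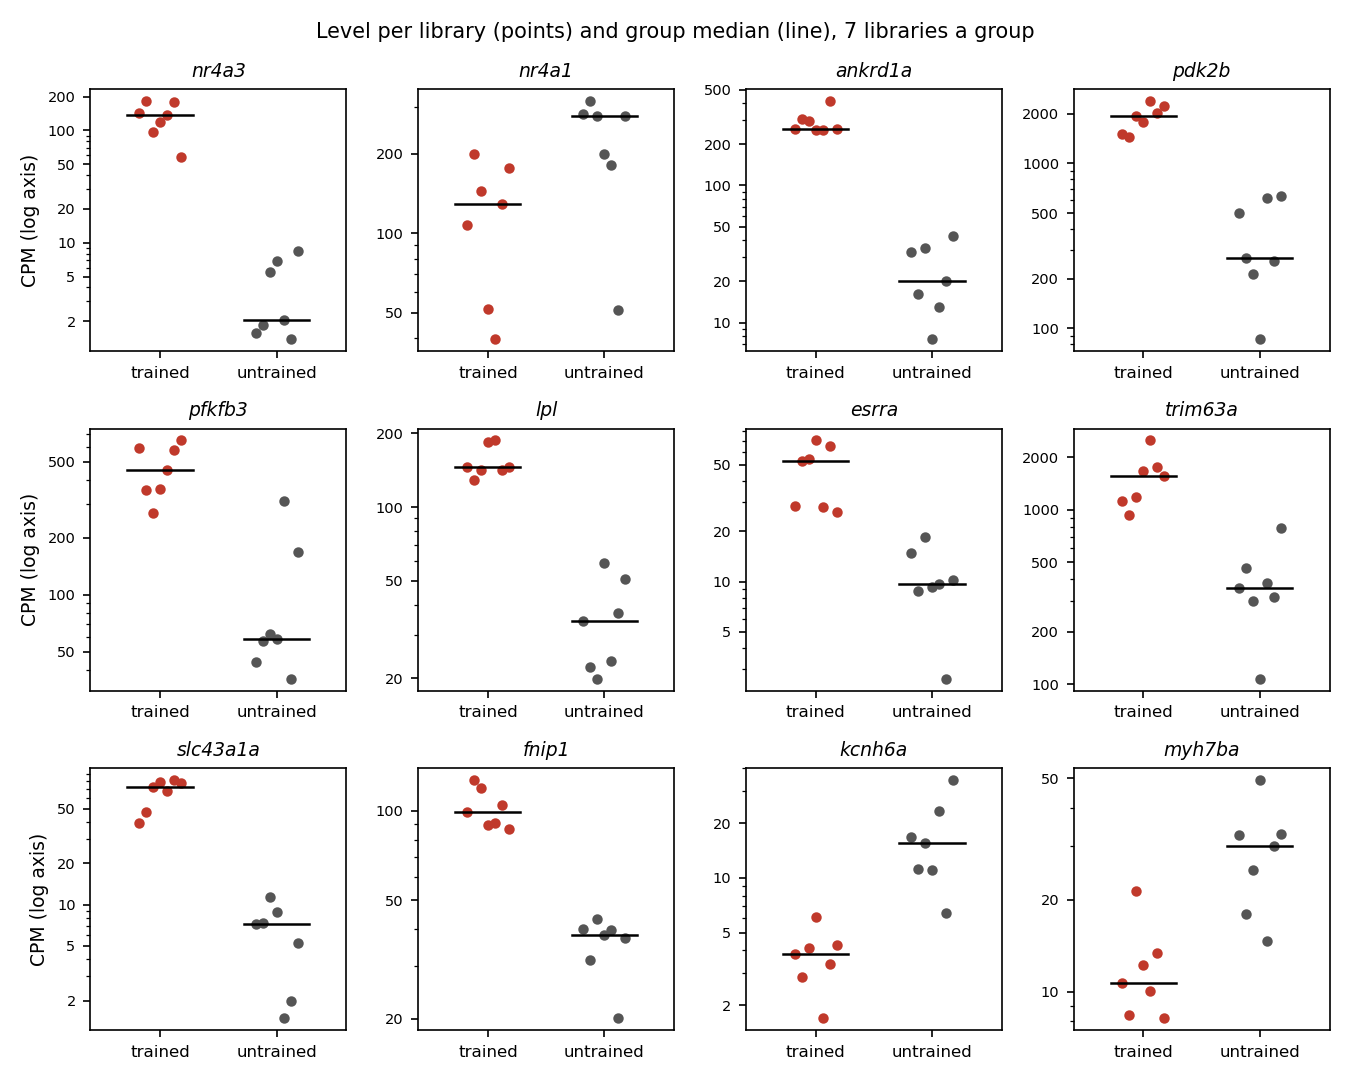
Level in CPM on a log axis of 12 genes in each of the 7 trained (red, left) and 7 untrained (grey, right) libraries, with the group median as a line. Trained and untrained points are separate for nr4a3, ankrd1a, pdk2b, lpl, esrra, trim63a, slc43a1a, fnip1 and kcnh6a, and overlap for nr4a1, pfkfb3 and myh7ba.

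Among the called genes with the smallest p-values was ankrd1a, for an ankyrin repeat protein that binds titin and is known in mammals to rise in stretched muscle. Its trained libraries lay between 254 and 413 CPM (median 257) and its untrained libraries between 7.56 and 42.4 CPM (median 20.2). The log2 fold change was 3.61 ± 0.34 (edgeR adjusted p = 3.55e-06), and it was 3.47 without untrained replicates 3 and 7. Some genes of the actin cytoskeleton and of focal adhesions, the contacts that tie actin to the matrix, were also called. In a list of 73 composed after the values were seen and so only described, 25 were higher and 2 lower. Without untrained replicates 3 and 7 these counts were 13 and 2. Under scaling by totals alone 9 were higher and 3 lower. Among the higher were pdlim1, for an actinin-binding LIM protein (2.21 ± 0.32), actn1, for a non-muscle alpha-actinin (1.79 ± 0.25), tpm4a, for a tropomyosin (1.62 ± 0.26), tagln2, for a transgelin (1.50 ± 0.21), the matrix-binding proteoglycan gene sdc4 (1.50 ± 0.18) and vclb, for vinculin (1.32 ± 0.17).

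Vinculin transcripts are given per library as an example, although only 6 of the 73 genes of that list had all trained libraries above all untrained ones. The gene vclb was at 18.3 to 38.1 CPM (median 26.9) in trained libraries, against 8.25 to 15.4 CPM (median 9.63) in untrained ones, with no overlap (edgeR adjusted p = 7.43e-05). The matricellular gene ctgfa, known as a target of the stretch-responsive YAP pathway, rose by 1.50 ± 0.26 (adjusted p = 0.00173), and its relative cyr61 was at 1.15 ± 0.36 (adjusted p = 0.0831). The actin-binding protein gene abraa went the other way, with 113 to 180 CPM (median 129) in trained and 154 to 353 CPM (median 307) in untrained libraries, lower by -1.0 ± 0.21 on the log2 scale (adjusted p = 0.0103). The focal adhesion gene pxnb was also lower, by -1.78 ± 0.41 (adjusted p = 0.0179), at levels below 3 CPM in both groups. Apart from ctgfa, 0 of the 65 tested genes of the extracellular matrix list were called, with 7 higher and 1 lower at an unadjusted p under 0.05. DESeq2 and the other alternatives called between 1 and 4 of that list higher.

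In the genes of pyruvate dehydrogenase and the citrate cycle, the called ones include a kinase and a phosphatase that act on the same enzyme. The kinase gene pdk2b, whose product switches off pyruvate dehydrogenase and so spares glucose carbon, ran from 1438 to 2397 CPM (median 1931) in trained and from 85.7 to 632 CPM (median 267) in untrained libraries. The groups did not overlap, and the log2 fold change was 2.37 ± 0.36 (edgeR adjusted p = 0.000463). The gene of the opposing phosphatase, pdp1, ran from 5.06 to 19 CPM (median 11.7) in trained and from 12.1 to 49.5 CPM (median 20.3) in untrained libraries, at -1.06 ± 0.29 (adjusted p = 0.0481, and 0.03 without untrained replicates 3 and 7). Its call was lost under 16 of the 25 alternatives. The paralogous kinase genes pdk2a and pdk4 were at 1.01 ± 0.34 (adjusted p = 0.109) and -0.37 ± 0.27 (adjusted p = 0.478). Of the 39 tested genes of this list 2 were higher and 1 lower, and 1 and 1 without untrained replicates 3 and 7. The other higher one was citrate synthase, cs (0.58 ± 0.15, adjusted p = 0.0401), which was called under only 7 of the 25 alternatives. Its call was lost without untrained replicates 3 and 7.

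Of 45 tested genes of glycolysis, glycogen and glucose transport 2 were called, both for bifunctional enzymes that make fructose 2,6-bisphosphate and so set the pace of phosphofructokinase. Trained libraries held 269 to 649 CPM of pfkfb3 (median 452) and untrained ones 36 to 312 CPM (median 58.1), so the groups overlapped. The log2 fold change of pfkfb3 was 2.15 ± 0.40 (edgeR adjusted p = 0.00373), and that of pfkfb4b was 1.98 ± 0.51 (adjusted p = 0.0376, lost without untrained replicates 3 and 7). Without those libraries 1 gene of the list was higher, pfkfb3, and 1 lower, the glucose transporter gene slc2a1b (-1.01, adjusted p = 0.0182), which with all libraries was at -0.74 ± 0.27 (adjusted p = 0.133). The 25 alternatives gave 1 to 4 higher and 0 to 2 lower. By values seen afterwards, the lactate transporter gene slc16a3 was lower, at 38.6 to 121 CPM (median 95.6) in trained and 108 to 376 CPM (median 166) in untrained libraries (-1.13 ± 0.27, adjusted p = 0.021). The same holds for ampd3a, for an AMP deaminase, with -1.02 ± 0.21 (adjusted p = 0.00882).

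Genes that release and oxidise fatty acids were among those called higher. Lipoprotein lipase, which frees fatty acids from circulating triglyceride, had 129 to 187 CPM of lpl (median 146) in trained and 19.9 to 58.9 CPM (median 34.4) in untrained libraries, with no overlap (2.12 ± 0.28, edgeR adjusted p = 0.000109). The gene for endothelial lipase, lipg, was at 90.8 to 190 CPM (median 131) in trained libraries and spread widely in untrained ones, from 0.836 to 35.4 CPM (median 6.27). Its log2 fold change was 3.48 ± 0.85 (edgeR adjusted p = 0.0273), and the call was lost without untrained replicates 3 and 7 (adjusted p = 0.097), although the groups did not overlap. Of 24 tested genes of fatty acid uptake and trafficking, 2 were higher (lpl and the fatty acid carrier gene fabp3) and 1 lower (fabp7a, at -1.57 ± 0.34), and without those libraries 1 and 0. The gene fabp3 was called under only 7 of the 25 alternatives.

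Mitochondrial beta-oxidation, which cuts fatty acids into acetyl-CoA, had 6 of 28 tested genes higher and 0 lower, and 21 higher at an unadjusted p under 0.05, with a list median of 0.56. Without untrained replicates 3 and 7 there were 2 higher, and the median was 0.39. The isomerase gene eci1 ran from 78.6 to 117 CPM (median 94.3) in trained and from 40.5 to 73.3 CPM (median 43.9) in untrained libraries, or 0.95 ± 0.17 log2 units higher (edgeR adjusted p = 0.00256). The short-chain dehydrogenase gene acads was at 0.93 ± 0.18 and the reductase gene decr1, which handles unsaturated chains, at 0.83 ± 0.19. Of these, eci1 and acads were called under all 25 alternatives and decr1 was lost without untrained replicates 3 and 7. Carnitine palmitoyltransferase gene cpt1b, the entry step of long-chain fatty acids, was at 0.59 ± 0.21 (adjusted p = 0.132).

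Respiratory chain genes had fold changes above 0 in nearly every member, of small size, and few were called. Fold changes were also above 0 in all 75 tested cytosolic ribosomal protein genes, with a median of 0.28. Of 37 complex I subunit genes, 4 were higher and 30 passed at an unadjusted p under 0.05. Of 47 nuclear genes of complexes II to V, 2 were higher and 32 passed unadjusted. List medians were 0.43 and 0.42 with all libraries and 0.26 and 0.24 without untrained replicates 3 and 7, where 0 were called in either list. Under scaling by totals alone these medians were 0.20 and 0.21. DESeq2 and the other alternatives gave at most 10 and 13 calls. The 13 mitochondrially encoded genes had 0 called and 3 at an unadjusted p under 0.05, with a median of 0.30, or 0.11 without those libraries, and at most 2 calls under any alternative. Mitochondrial ribosomal protein genes had 5 of 73 higher, with a median of 0.37, and 0 of 73 higher with a median of 0.25 without those libraries. Scaling by totals alone gave medians of 0.05 for the mitochondrially encoded and 0.14 for the mitochondrial ribosomal protein genes. Among carriers of the mitochondrial inner membrane, a list of 48 composed after the values were seen, 5 were higher and 1 lower. The median of this list was 0.07, and -0.06 without untrained replicates 3 and 7, where 2 were higher and 0 lower. Under scaling by totals alone 4 were higher and 3 lower, with a median of -0.19. The pyrimidine nucleotide carrier gene slc25a33 was at 230 to 360 CPM (median 245) in trained and 20.9 to 165 CPM (median 84.5) in untrained libraries (1.64 ± 0.31, edgeR adjusted p = 0.00449), and the glutamate carrier gene slc25a22 rose by 1.11 ± 0.18 (adjusted p = 0.000935).

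**Figure D3:**
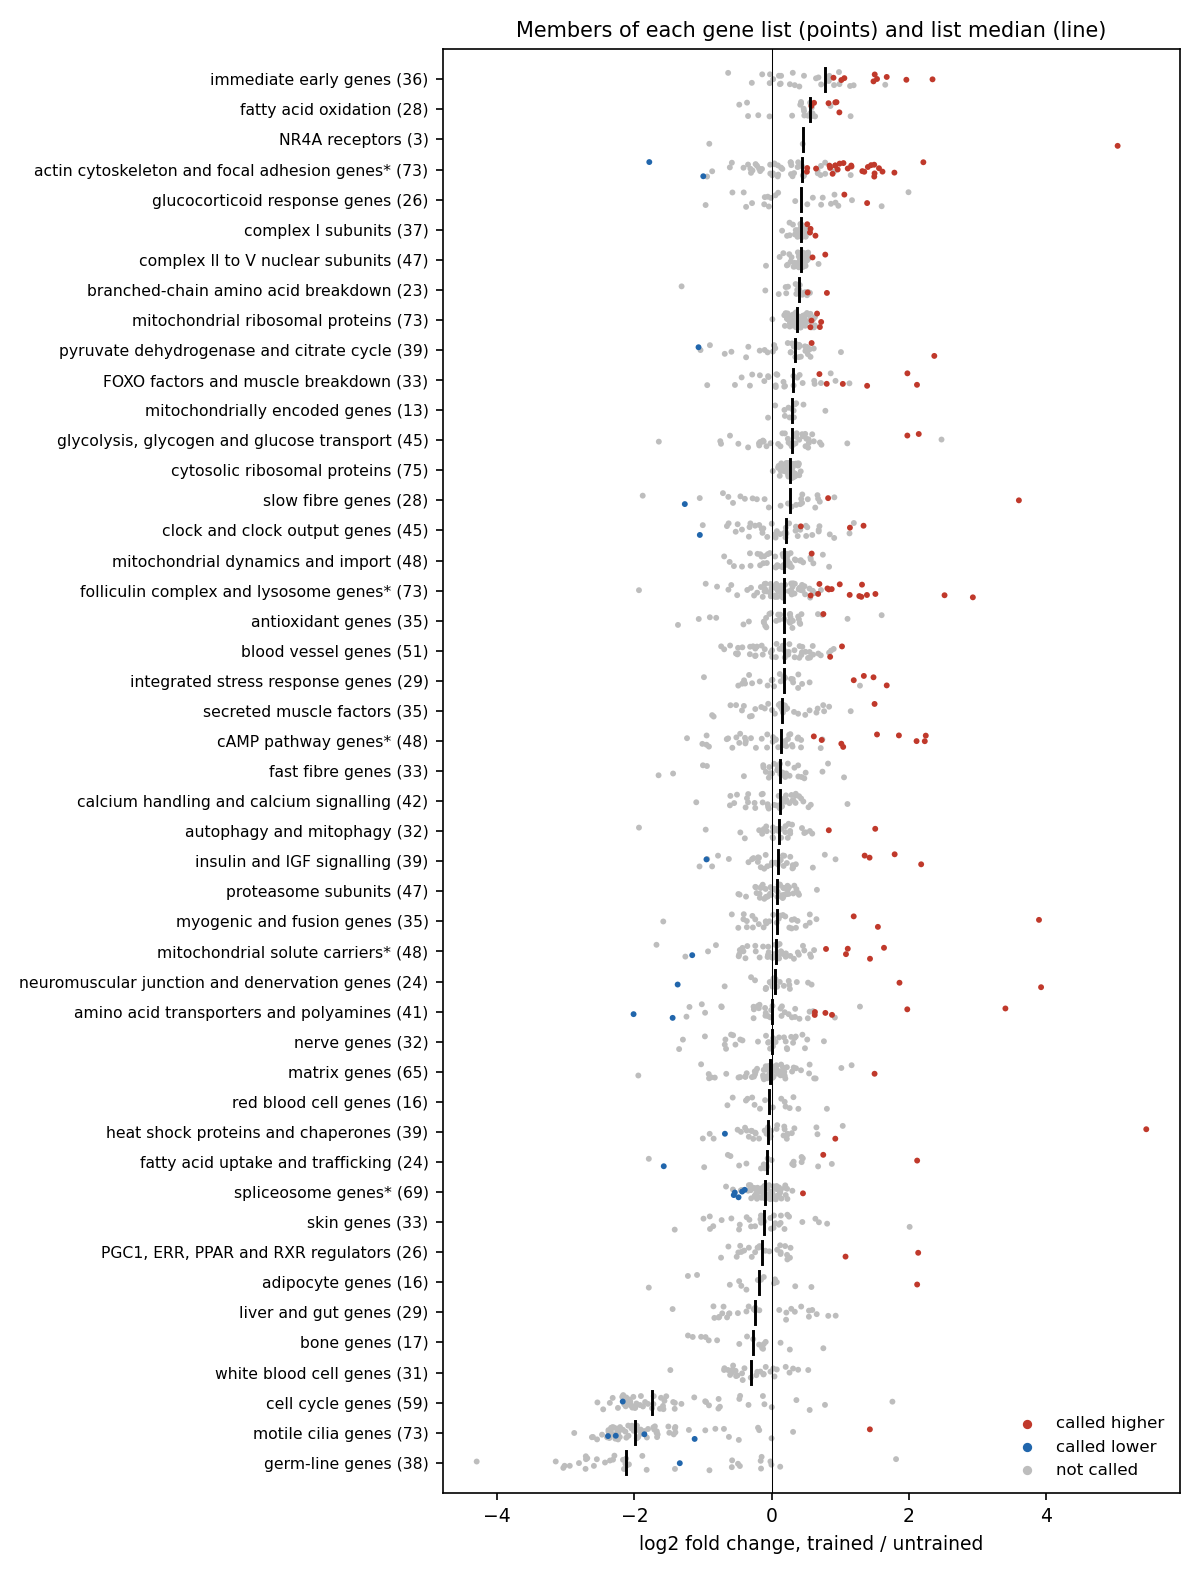
Log2 fold change, trained over untrained, of every tested member of each gene list (points; number tested in brackets) with the list median as a black line, ordered by median. Called members are red or blue, lists marked * were composed after the values were seen, and the lowest 3 medians are those of germ-line (-2.13), motile cilia (-1.99) and cell cycle (-1.74) genes.

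Of the muscle ubiquitin ligase genes 1 was called. The gene trim63a, for the ligase MuRF1 that tags thick filament proteins, ran from 930 to 2491 CPM (median 1557) in trained and from 108 to 790 CPM (median 358) in untrained libraries, with no overlap (1.98 ± 0.34, edgeR adjusted p = 0.00188). Its paralog trim63b ran from 323 to 739 CPM (median 408) in trained and from 130 to 435 CPM (median 339) in untrained libraries, at 0.63 ± 0.23 (adjusted p = 0.132). The other classical ligase gene, fbxo32, was at 0.93 ± 0.38 (adjusted p = 0.179). Of 33 tested genes of FOXO factors and muscle breakdown, 6 were higher and 0 lower, and 4 and 0 without untrained replicates 3 and 7, with a median of 0.32 that became -0.02 when libraries were scaled by totals only. They include gadd45aa, for a stress protein known to rise in wasting mammalian muscle (2.12 ± 0.31), the glucocorticoid-responsive factor gene klf15 (1.39 ± 0.32) and foxo4 (0.81 ± 0.19). The calls on klf15 and foxo4 were lost without those 2 libraries. Proteasome subunit genes had 0 of 47 called by edgeR, 3 higher and 3 lower at an unadjusted p under 0.05, and 0 higher and 2 lower at most under any alternative.

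Insulin and IGF signalling had 4 of 39 tested genes higher and 1 lower, and 2 and 0 without untrained replicates 3 and 7. The receptor substrate gene irs2a, which couples the insulin receptor to PI3 kinase, was at 46.2 to 86.7 CPM (median 58.5) in trained and 9.7 to 42.3 CPM (median 21.1) in untrained libraries (1.43 ± 0.29, edgeR adjusted p = 0.00731). The gene of the growth factor binding protein igfbp1a rose by 1.80 ± 0.35 (adjusted p = 0.00514). The calls on the paralogs irs2b (1.36 ± 0.34) and igfbp1b (2.18 ± 0.55) were lost without untrained replicates 3 and 7. The gene of the mTOR inhibitor deptor was lower at -0.95 ± 0.21 (adjusted p = 0.0155), and 0.066 without untrained replicates 3 and 7.

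Genes of the folliculin complex, a nutrient sensor, were higher. Folliculin and its partners act at the lysosome on mTORC1 and on the transcription factors that build lysosomes, and loss of Fnip1 in mice is known to make muscle more oxidative. The partner gene fnip1 was at 87 to 127 CPM (median 98.7) in trained and 20.1 to 43.4 CPM (median 38.3) in untrained libraries. The log2 fold change was 1.52 ± 0.15 (edgeR adjusted p = 5.63e-06). The folliculin gene flcn was higher by 1.32 ± 0.24 and the second partner, FNIP2, by 2.52 ± 0.44. All 3 were called under each of the 25 alternatives. In the list of 73 folliculin and lysosome genes, composed after the values were seen, 15 were higher and 0 lower, or 7 and 0 without untrained replicates 3 and 7, and the median of 0.19 became -0.08 under scaling by totals alone. The lysosomal exporter gene of cationic amino acids, pqlc2, rose by 2.94 ± 0.34 (adjusted p = 2.27e-05), and the cathepsin gene ctsd by 0.70 ± 0.16. Of 32 autophagy genes 2 were higher: the initiating kinase ulk2 (1.51 ± 0.29), called under all alternatives, and the cargo receptor sqstm1 (0.84 ± 0.23), lost under 19 of 25.

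Amino acid transport genes moved in both directions. Of 41 tested transporter and polyamine genes, 6 were higher and 2 lower, and 4 and 2 without untrained replicates 3 and 7. The large neutral amino acid transporter gene slc43a1a was at 39.6 to 81 CPM (median 71.9) in trained and 1.49 to 11.4 CPM (median 7.23) in untrained libraries, with no overlap (3.41 ± 0.39, edgeR adjusted p = 2.27e-05). Another such transporter gene, slc7a8a, rose by 1.98 ± 0.36. The taurine transporter paralogs separated: slc6a6a was lower, at 0.921 to 3.65 CPM (median 1.63) in trained and 3.27 to 14 CPM (median 8.23) in untrained libraries (-2.01 ± 0.41, adjusted p = 0.00731), whereas slc6a6b was at 0.63 ± 0.17 (adjusted p = 0.0408). Cationic amino acid transporter genes separated in the same way. The gene named SLC7A1 (1 of many), singled out after its values were seen, had 22 to 47.2 CPM (median 35.9) in trained and 0.471 to 3.92 CPM (median 1.71) in untrained libraries (4.24 ± 0.42, adjusted p = 4.59e-06), while slc7a1 was at -1.44 ± 0.34 (adjusted p = 0.0221). Reads of such close copies may be divided between them by the counting, so their separate values are uncertain.

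Genes of the stress responses were called in small numbers. Of 29 tested genes of the integrated stress response, in which phosphorylated eIF2 alters translation, 4 were higher and 0 lower, and 1 and 0 without untrained replicates 3 and 7. The transcription factor gene ddit3, which is known to promote death under lasting stress, was at 38 to 62.6 CPM (median 52.7) in trained and 16.4 to 27.9 CPM (median 22.6) in untrained libraries (1.2 ± 0.16, edgeR adjusted p = 0.000143). The gene of the pro-apoptotic protein bada was higher by 2.09 ± 0.23 (adjusted p = 1.64e-05). Among 39 heat shock and chaperone genes 2 were higher and 1 lower. The highest fold change of the named genes was that of the co-chaperone aipl1, known from photoreceptors, with 0.519 to 14.7 CPM (median 6.46) in trained and 0 to 0.402 CPM in untrained libraries, or 32 to 1146 and 0 to 31 counts. The fitted log2 fold change of aipl1 was 5.47 ± 0.79, and ran from 4.80 to 6.19 over the 25 alternatives. Counts were also low for cldn15la, for a claudin of cell junctions, with 11 to 302 in trained and 0 to 11 in untrained libraries. Its fold change ran from 4.85 to 5.61 over the alternatives. The transcription factor gene hsf1 was lower at -0.68 ± 0.17, a call lost without untrained replicates 3 and 7.

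Myogenic and junctional genes had few calls. Of 35 tested myogenic and fusion genes 3 were higher and 0 lower, or 1 and 0 without untrained replicates 3 and 7. The fibre-maturation factor gene myf6 was at 15.9 to 43.8 CPM (median 30.9) in trained and 5.69 to 19.8 CPM (median 15.7) in untrained libraries (1.2 ± 0.23, edgeR adjusted p = 0.00566). The fusion gene mymk, for myomaker, had 111 to 261 counts in trained and 0 to 38 in untrained libraries, and its call was lost without untrained replicates 3 and 7 (adjusted p = 0.076). The same was so for the early myogenic factor gene myf5 (1.55 ± 0.40). The myogenin gene myog was at -1.58 ± 0.50 (adjusted p = 0.0868). Of 24 tested genes of the neuromuscular junction and of denervation, 2 were higher and 1 lower. The higher ones were etv5b, for an ETS factor known from the mouse synapse (1.87 ± 0.30), and the adhesion molecule gene ncam3 (3.93 ± 0.75). The lower one was hdac9b (-1.37 ± 0.33), whose call was lost without untrained replicates 3 and 7. Without those libraries 2 were higher and 1 other member was lower. The secreted growth factor gene hgfa, whose product is known to rouse muscle stem cells in mammals, was at 1.31 to 13.8 CPM (median 4.07) in trained and 0.349 to 1.19 CPM (median 0.558) in untrained libraries (3.08 ± 0.48, adjusted p = 0.000649).

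Few contractile genes were called. Of 28 tested slow fibre genes 2 were higher, ankrd1a and smyhc1, and 1 lower, myh7ba. The slow myosin gene smyhc1 was at 393 to 796 CPM (median 495) in trained and 234 to 410 CPM (median 274) in untrained libraries (0.83 ± 0.21, edgeR adjusted p = 0.03), and 0.13 was the adjusted p without untrained replicates 3 and 7. Another slow-type myosin gene, myh7ba, was at 8.2 to 21.3 CPM (median 10.7) in trained and 14.6 to 49.4 CPM (median 30) in untrained libraries (-1.26 ± 0.26, adjusted p = 0.008), and was called under all 25 alternatives. The myoglobin gene mb was at 0.64 ± 0.21 (adjusted p = 0.104). Fast fibre genes had 0 of 33 called by edgeR, 1 higher and 2 lower at an unadjusted p under 0.05, and at most 1 in either direction under any alternative. Calcium handling genes had 0 of 42 called by edgeR, 4 higher and 1 lower unadjusted, and at most 2 higher or 1 lower under any alternative.

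Clock genes and blood vessel genes were called in a few members. Of 45 tested clock and clock output genes 3 were higher and 1 lower, and 2 and 1 without untrained replicates 3 and 7. The repressor gene per2, which light also induces in zebrafish, was at 52.6 to 69.1 CPM (median 65.8) in trained and 18.3 to 42.9 CPM (median 26.5) in untrained libraries, with no overlap (1.14 ± 0.20, edgeR adjusted p = 0.00252). The activator gene arntl1b was lower by -1.05 ± 0.23 (adjusted p = 0.0155, and 0.066 without those 2 libraries). The 1 lower gene without them was thus another member of the list. The time of sampling is not in the labels, and its part in these values was not tested. Of 51 tested blood vessel genes 2 were higher, the receptor genes kdrl (1.03 ± 0.27) and tek (0.86 ± 0.21), and 0 were without untrained replicates 3 and 7. The vascular growth factor gene vegfaa was at 44.2 to 89.9 CPM (median 58.9) in trained and 13.2 to 79 CPM (median 33.7) in untrained libraries (0.84 ± 0.31, adjusted p = 0.141).

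Other genes with high fold changes lay outside the fixed lists. The gene actl6b, for a subunit of the neuronal chromatin remodelling complex, was at 7.95 to 22.6 CPM (median 12.9) in trained and 0.331 to 0.986 CPM (median 0.52) in untrained libraries, with no overlap (4.55 ± 0.39, edgeR adjusted p = 1.12e-06). The tetraspanin gene tspan36 was at 21.4 to 40.5 CPM (median 32.1) in trained and 2.53 to 9.36 CPM (median 3.32) in untrained libraries (2.82 ± 0.27, adjusted p = 3.55e-06). The JNK scaffold gene mapk8ip1a (3.42 ± 0.51), the zinc transporter gene tmem163a (3.20 ± 0.46) and the secreted metalloprotease gene adamts9 (2.99 ± 0.45) also had trained libraries wholly above untrained ones. The co-regulator gene cited4b, known in mice to rise in the exercised heart, was at 16.4 to 294 CPM (median 28.8) in trained and 6.45 to 13 CPM (median 9.36) in untrained libraries (3.02 ± 0.52, adjusted p = 0.0018), and trained replicate 5 alone held the 294 CPM. Singled out after its values were seen, mibp, for a muscle kinase of the NAD precursor nicotinamide riboside, was at 205 to 295 CPM (median 271) in trained and 18.7 to 58.6 CPM (median 30.2) in untrained libraries (2.84 ± 0.34, adjusted p = 3.8e-05).

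Further lists held 1 or 2 called genes, where 2.25% of all genes tested were called higher. Branched-chain amino acid breakdown had 2 of 23 higher, aldh6a1 and the phosphatase gene ppm1k, and 0 without untrained replicates 3 and 7. Glucocorticoid response genes had 2 of 26 higher, klf15 and dusp1, which other lists hold too. Both of these calls were lost without those libraries, where 1 other gene of the 26 was higher. Antioxidant genes had 1 of 35 higher, the regulator nfe2l2a (0.76 ± 0.19), whose call was lost under 11 of the 25 alternatives, and 2 without untrained replicates 3 and 7. Secreted muscle factors had 1 of 35 higher with and without them, ctgfa. Genes of mitochondrial dynamics and import had 1 of 48 higher, the import receptor gene tomm20b (0.59 ± 0.14), and 0 without them. In these 3 lists 0 were lower with all libraries. Cytosolic ribosomal protein genes had 0 of 75 called by edgeR, 11 higher and 0 lower at an unadjusted p under 0.05 and at most 1 call under any alternative, with a median of 0.28, or 0.01 under scaling by totals only.

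Lower genes were fewer, and most belonged to no fixed list. The potassium channel gene kcnh6a was at 1.7 to 6.13 CPM (median 3.83) in trained and 6.41 to 34.5 CPM (median 15.5) in untrained libraries, with no overlap (-2.17 ± 0.35, edgeR adjusted p = 0.000876). The homeobox gene pitx3, known for roles in lens and muscle development, was at 2.98 to 8.91 CPM (median 3.91) in trained and 9.15 to 17.1 CPM (median 15.4) in untrained libraries (-1.52 ± 0.22, adjusted p = 0.000332). The kinase gene dyrk2 was at 4.03 to 7.51 CPM (median 5.29) in trained and 8.91 to 52.5 CPM (median 13.4) in untrained libraries (-1.81 ± 0.35, adjusted p = 0.00568). These 3 genes were called under all 25 alternatives.

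Other lower genes were singled out after their values were seen. The TGF-beta effector gene smad3b was at 3.57 to 6.69 CPM (median 4.98) in trained and 6.77 to 20.1 CPM (median 12.9) in untrained libraries (-1.42 ± 0.30, edgeR adjusted p = 0.00953). The gene hexim1, for an inhibitor of the elongation kinase P-TEFb, was lower by -0.63 ± 0.12 (adjusted p = 0.00621), while ccnt2a, for a cyclin of that kinase, was higher by 0.77 ± 0.14 (adjusted p = 0.00359). Of 69 tested spliceosome genes, a list composed after the values were seen, 1 was higher and 5 lower, such as prpf8, the core of the catalytic centre, at 36.4 to 53.8 CPM (median 39) in trained and 52.2 to 66 CPM (median 58.5) in untrained libraries (-0.48 ± 0.10, adjusted p = 0.008). Without untrained replicates 3 and 7 these counts were 0 and 1.

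**Figure D4:**
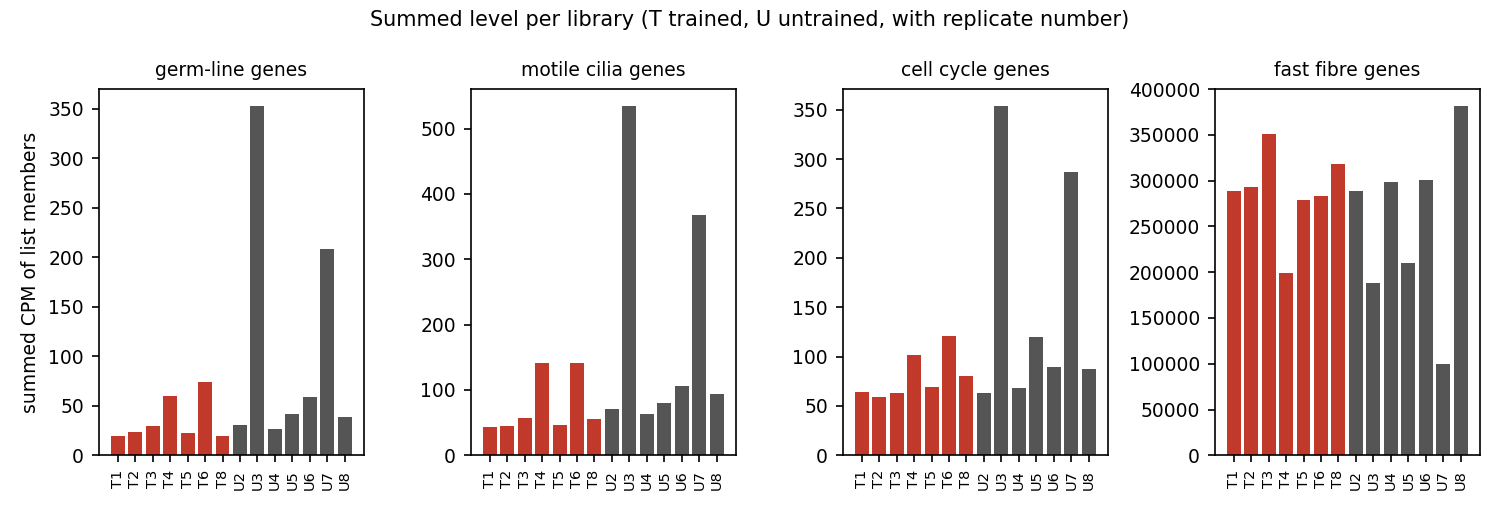
Summed CPM of the members of 4 gene lists in each trained (T, red) and untrained (U, grey) library, labelled by replicate number, with each vertical axis from 0. Untrained replicates 3 and 7 hold the tallest germ-line (352.6 and 208.4 CPM), motile cilia (533.9 and 367.9 CPM) and cell cycle (353.4 and 287.2 CPM) bars, and replicate 7 the lowest fast fibre bar (99201 CPM).

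The lowest fold changes as groups were those of genes of dividing and ciliated cells and of the germ line, and few were called. Motile cilia genes, which build beating cilia and sperm tails, had 1 of 73 higher and 4 lower with 58 lower at an unadjusted p under 0.05. Cell cycle genes had 0 higher and 1 lower of 59 with 43 lower unadjusted, and germ-line genes 0 higher and 1 lower of 38 with 21 lower unadjusted. Their medians of -1.99, -1.74 and -2.13 became -0.45, -0.43 and -0.08 without untrained replicates 3 and 7. DESeq2 and the other alternatives gave up to 20, 32 and 3 lower calls. The cilia master regulator gene foxj1b was at 0.212 to 0.87 CPM (median 0.324) in trained and 0.337 to 5.75 CPM (median 1.73) in untrained libraries (-2.27 ± 0.54, edgeR adjusted p = 0.0234, and 0.086 without those 2 libraries). Calls on the cilia genes CFAP65 and cdk20 and on the spindle gene tpx2 were lost without them as well. In that fit 1 motile cilia gene was higher and 0 were lower. The higher cilia gene spag1a was at 11.5 to 21.3 CPM (median 18.1) in trained and 4.66 to 7.43 CPM (median 6.70) in untrained libraries. Its log2 fold change was 1.43 ± 0.18 (edgeR adjusted p = 4.93e-05), and it was called under all 25 alternatives. The germ cell helicase gene ddx4 was at 0.0137 to 2.57 CPM in trained libraries, against 18.8 and 11.9 CPM in untrained replicates 3 and 7 and 0.147 to 1.81 CPM in the other untrained ones.

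Markers of blood, skin, nerve, bone, liver and gut cells, which muscle samples could carry, were not called. Red blood cell (16 tested), white blood cell (31), skin (33), nerve (32), bone (17), and liver and gut genes (29) had 0 calls by edgeR in either direction. At an unadjusted p under 0.05 these 6 lists had 4 higher and 3 lower members together, and no alternative called more than 1 member of any of them. Summed red blood cell genes ran from 434.6 to 1123.6 CPM in trained and from 389.6 to 2137.5 CPM in untrained libraries, and white blood cell genes from 93 to 218.4 CPM in trained and from 131.1 to 338.3 CPM in untrained libraries. Of 16 adipocyte genes 1 was called, lpl, which muscle fibres also express.

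**Figure D5:**
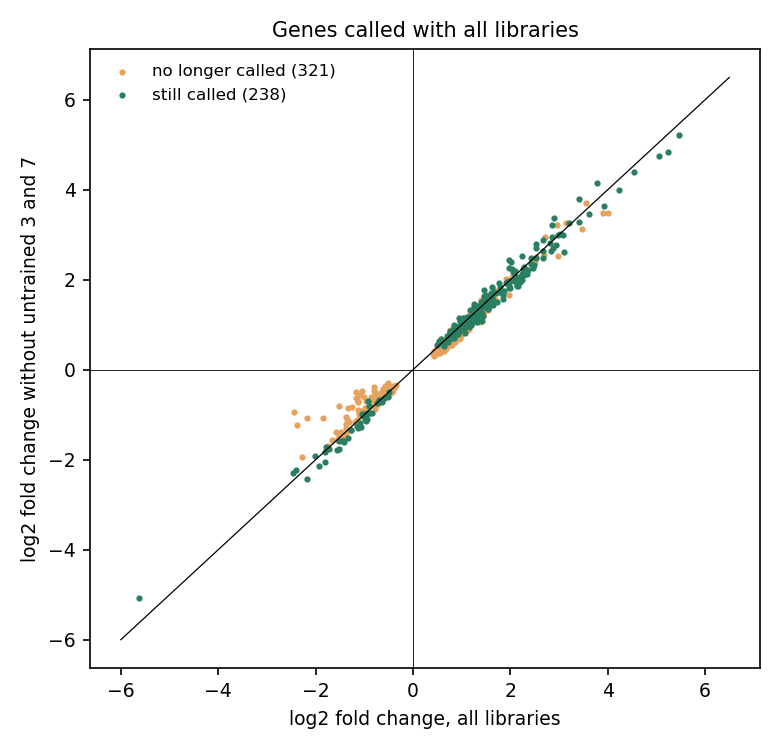
Log2 fold change of the 559 called genes with all libraries (horizontal axis) against the same without untrained replicates 3 and 7 (vertical axis), with the line of equality. All 559 keep their sign, 238 are still called (green) and 321 are not (orange), and several orange genes of the lower left lie well above the line.

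Trained wild-type muscle was also tested directly against untrained muscle carrying the transgene. Training and genotype differ together in this contrast, so their parts in a difference cannot be told apart. In this contrast 7887 genes were called (41.6%), 4255 higher (22.5%) and 3632 lower (19.2%) in trained muscle, so a call here is common. When libraries were scaled by their totals only, 4943 were higher and 2178 lower. Respiratory chain genes were lower in trained than in transgenic muscle, with 36 of 37 complex I genes and 13 of 13 mitochondrially encoded genes lower. Of 28 fatty acid oxidation genes 16 were lower and 4 higher. The immediate early list had 21 of 36 higher and 0 lower, and the list of FOXO factors and muscle breakdown 16 of 33 higher and 0 lower. Fast fibre genes had 28 of 33 higher and 2 lower.

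Several of the genes that rose with training were also higher in trained than in transgenic muscle. Both comparisons use the same trained libraries, so this is not independent evidence. Trained libraries held 57.8 to 183 CPM of nr4a3 and transgenic ones 0.922 to 19.1 CPM (median 3.15), with no overlap (log2 fold change, trained over transgenic, 4.59 ± 0.59, edgeR adjusted p = 1.94e-06). The gene ankrd1a was at 254 to 413 CPM in trained and 22.3 to 77.5 CPM (median 52.1) in transgenic libraries, a difference of 2.62 ± 0.33. The kinase gene pdk2b was at 1438 to 2397 CPM in trained and 47.7 to 212 CPM (median 113) in transgenic libraries, a difference of 4.04 ± 0.38. The widest difference of these was that of pfkfb3, with 269 to 649 CPM in trained and 5.06 to 9.19 CPM (median 7.67) in transgenic libraries, or 6.05 ± 0.48.

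For other genes the trained and transgenic levels lay close. The lipase gene lpl was at 129 to 187 CPM (median 146) in trained and 81.7 to 265 CPM (median 108) in transgenic libraries and differed by 0.07 ± 0.27 (edgeR adjusted p = 0.868). The vinculin gene vclb differed by 0.03 ± 0.17 (adjusted p = 0.908), pparaa by 0.26 ± 0.25 (adjusted p = 0.439) and kdrl by -0.05 ± 0.27 (adjusted p = 0.894). The trained and transgenic comparisons with untrained wild type share their control libraries, so likeness between them is not independent evidence.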

How the data were processed

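Strand-specific mRNA libraries of zebrafish skeletal muscle were read as paired ends of 125 cycles, per the labels' protocols. The authors used STAR 2.4.0i, HTSeq 0.9.1 and DESeq2 with the GRCz10 genome, per the submitters' processing notes; the sources used here give neither the annotation release nor the strand setting. Reads of antisense or overlapping genes may therefore be mixed.

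The authors deposited a table of raw counts per gene for 21 libraries, with rows that name no gene (15.0% to 17.5% of counts in trained and 16.1% to 16.6% in untrained libraries), which were left out. They also deposited tables of log2 fold changes, p-values and adjusted p-values of their own comparisons, from which gene symbols and the calls credited to them were taken; 42 per-sample normalised columns there were not used. Symbols were found for 31312 of 31953 gene IDs.

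Counts were tested with edgeR 4.0.16 (R 4.3.3; TMM scaling, expression filter by group, quasi-likelihood F test) in 1 fit of all 21 libraries with group as the only term, and p-values were adjusted by Benjamini-Hochberg over 18947 genes. CPM are on TMM-adjusted library sizes, errors are SEs, and adjusted p-values in the text are from this fit. The code recovered known fold changes from simulated counts, which were drawn with the means, library sizes and dispersions of this fit. They held no outlying libraries, so this checks the code and not the calls on the real libraries. No pair of libraries within the trained or within the untrained wild-type group agreed within sampling noise, and other pairs were not checked. DESeq2 1.42.0, limma 3.58.1, other scalings, filters and designs, and each library left out, were tried as alternatives.

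Genes named are called genes averaging at least 50 counts with all trained libraries on 1 side of the untrained median (15 highest and 10 lowest fold changes), the 10 smallest p-values, the 3 smallest p-values of each of 42 lists, a few fixed genes, and other list members as examples. The lists and genes were chosen with earlier results of these data known, and 5 more lists were composed after the values were seen. No sequences are shown.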

Additional observations from a re-analysis of the deposited data

Results flagged for a closer look

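Among 110 groups of 7 libraries, over 41 genes and 14 list sums, 13 held a highest or lowest library far from the rest by Dixon's test. Chance gives this for about 1 group in 20 where values are normally spread, which was not tested for these CPM. The groups also share libraries, so they are not independent and 13 cannot be set against that rate. In trained muscle, replicate 5 was the highest for cited4b at 294 CPM (next 117 CPM) and for the sodium/proton exchanger gene slc9a5 at 5.12 CPM (next 2.20 CPM). Trained replicate 6 was the highest for ankrd1a at 413 CPM (next 304 CPM) and for the summed liver and gut genes at 489 CPM (next 124 CPM), and trained replicate 3 for dyrk2 at 7.51 CPM (next 5.40 CPM) and myh7ba at 21.3 CPM (next 13.4 CPM).

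In untrained muscle, replicate 5 was the highest for dyrk2 at 52.5 CPM (next 19.3 CPM), tspan36 at 9.36 CPM (next 5.02 CPM) and the summed red blood cell genes at 2138 CPM (next 637 CPM). Untrained replicate 3 was the highest for the kinase gene cdk20 at 2.41 CPM (next 1.06 CPM) and the lowest for ece1, for endothelin-converting enzyme, at 9.09 CPM (next 14.8 CPM). Untrained replicate 4 was the highest for aipl1 at 0.402 CPM (next 0.159 CPM) and untrained replicate 8 for pqlc2 at 3.56 CPM (next 1.58 CPM).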

How the results depend on the processing

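Of 150 named genes 92 were called; under the 25 alternatives 0 of these changed sign, 45 were called every time and 47 lost their call at least once, while 30 others gained one. Of the named genes not called, 5 changed sign: mpeg1.1 (0.0503) and alpl (0.50) with limma, rag2 (0.0669) and cadm3 (0.18) with the germ-cell covariate, and ppargc1a (0.0777) without trained replicates 2 and 3. Scaling by library totals only gave 1128 calls, 201 higher and 927 lower, and 2178 lower against the transgenic libraries; it moved the median of all genes by -0.30. DESeq2 gave 1273 calls, 710 higher and 563 lower (55.8% higher), and limma with sample weights 978, of which 347 were lower (64.5% higher). With no filter on low counts 67 were lower, and with only the 2 groups in the fit 86 were lower. A germ-cell score as covariate left 201 calls, 163 higher and 38 lower. Leaving out untrained replicates 3 and 7 together left 262, with 210 higher and 52 lower. Leaving out each library in turn gave 287 to 623 calls, 237 to 487 higher and 50 to 157 lower, and against the transgenic libraries 7418 to 8105 calls, 4059 to 4512 higher and 3359 to 3745 lower. Leaving out trained replicates 2 and 3 together, chosen after seeing the data, gave 479 calls. The causes of these differences were not tested, and the fits with libraries left out also held fewer samples. The replicate number as a block gave 369 calls, 306 higher and 63 lower, but no clear pairing by number was seen. Deviations of 6 same-numbered pairs correlated between -0.364 and 0.397, 2 of them over 0.1. Of these pairs, 0 trained libraries correlated best with their own number. Outlying libraries weigh on these correlations, so a weak pairing could be missed. At this depth genes of a few counts per library, such as cldn15la, limit the precision of their fold changes.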

Other observations

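The myosin heavy chain gene myha varied between libraries of the same group. Trained replicate 3 held 17.8 CPM and the other trained libraries 1435 to 2303 CPM. Untrained replicates 3, 6 and 4 held 15.3, 20.3 and 159 CPM and the other untrained libraries 739 to 2822 CPM. Its log2 fold change was 0.74 ± 0.82 (edgeR adjusted p = 0.667). The testis-expressed hormone gene insl3 was at 0 to 1.83 CPM in trained libraries, against 41.5 and 13.2 CPM in untrained replicates 3 and 7 and 0.246 to 2.73 CPM in the other untrained ones.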
